A study of Mus musculus with 2 samples.

Results

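The genes of the NF-κB pathway were examined in hematopoietic stem cells (HSCs) of the fetal liver (FL), with and without endothelial cell-selective adhesion molecule (ESAM). The 44 genes were the NF-κB subunits, their inhibitors and kinases, the adaptors, the ubiquitin enzymes and 3 receptors. They were taken by symbol, and all 44 were found among the 23284 gene symbols in the files. RNA sequencing was performed on lineage-negative, Sca-1 and c-Kit positive, CD48-negative cells (LSK CD48-) sorted from mouse FLs at E14.5 (embryonic day), with 1 library from wild-type (WT) fetuses and 1 from ESAM-null fetuses. The ESAM-null fetuses carried a conventional knockout, present in every cell type and not in HSCs alone. The sources used here do not state the number, sex or strain of the fetuses behind each library. The treatment label places the sorted cells in colony medium, whereas the study describes the libraries as those of sorted cells, and the values were read as such.

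NF-κB is a family of dimeric transcription factors that wait in the cytoplasm, held by IκB proteins. Receptors such as those for TNF, lymphotoxin and interleukin-1 gather adaptors and ubiquitin ligases, whose ubiquitin chains recruit the IκB kinase (IKK) complex. The canonical branch frees dimers of RelA and p50, and the noncanonical branch, run by the kinase NIK, frees RelB and p52. Several targets of NF-κB are its own inhibitors, so that the response shuts itself off. In blood cells the pathway is best known for its part in B lymphopoiesis, survival and inflammation. The study named Tnfaip3 and Malt1 of these genes when it put forward a link from ESAM to B cell production, and the question here was how the rest of the pathway stood in the same libraries.

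Values are FPKM, fragments per kilobase of exon and 1000000 fragments. They are per length, but levels of different genes compare only roughly, since the gene annotation and the handling of shared reads are not stated. Esam was 117.6 FPKM in WT and 12.1 in ESAM-null cells, 9.69-fold lower but not absent. Which part of the gene these remaining reads cover cannot be read from 1 value per gene. The numbers of reads are not in the files, but low values fall on steps of whole reads. Read off in this way, the WT values rest on about 9584260 reads in all and the ESAM-null values on about 11715700. Despite fewer reads in WT, 14305 genes were above 0 there, against 13039 in ESAM-null. A value of 0 in ESAM-null alone, as given for some genes below, is therefore not particular to genes of this pathway. Each member rested on about 49 to 2067 reads in WT and 46 to 3012 in ESAM-null. The intervals given below are 95% exact (Clopper-Pearson) intervals from these approximate reads and cover counting error only. With 1 library per genotype there is no test and no p-value, and no difference has a replicate check. A lower level in sorted bulk cells can come from fewer cells that carry a transcript or from less of it per cell, and these cannot be told apart.

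All 44 members were above 1 FPKM in both libraries. At least 2-fold lower in ESAM-null were 6 of them, or 13.6%, against 12.8% of the 12066 genes that reached 1 FPKM in at least 1 library. At least 2-fold higher was 1 member, or 2.27%, against 7.42% of all genes. Among the 10674 genes that, like every member, reached 1 FPKM in both libraries, 7.13% were lower and 4.09% higher. The members' share of lower genes was thus near that of the first set and above that of the second, while their share of higher genes was below both. The lower members were Tnfaip3, Map3k14, Rnf31, Nfkbiz, Malt1 and Nfkbie, and the higher member was Birc3. With the FPKM of either library made to add up to 1000000, a step that shifts all log2 ratios by -0.28, 9 members were lower and none was higher. Lower and higher calls over all genes then went from 1540 and 895 to 2210 and 657, or 18.3% and 5.445%. Tnfaip3 and Malt1 were named by the study on these libraries and are not independent evidence of a direction. Without them 4 of 42 members were lower.

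**Figure D1:**
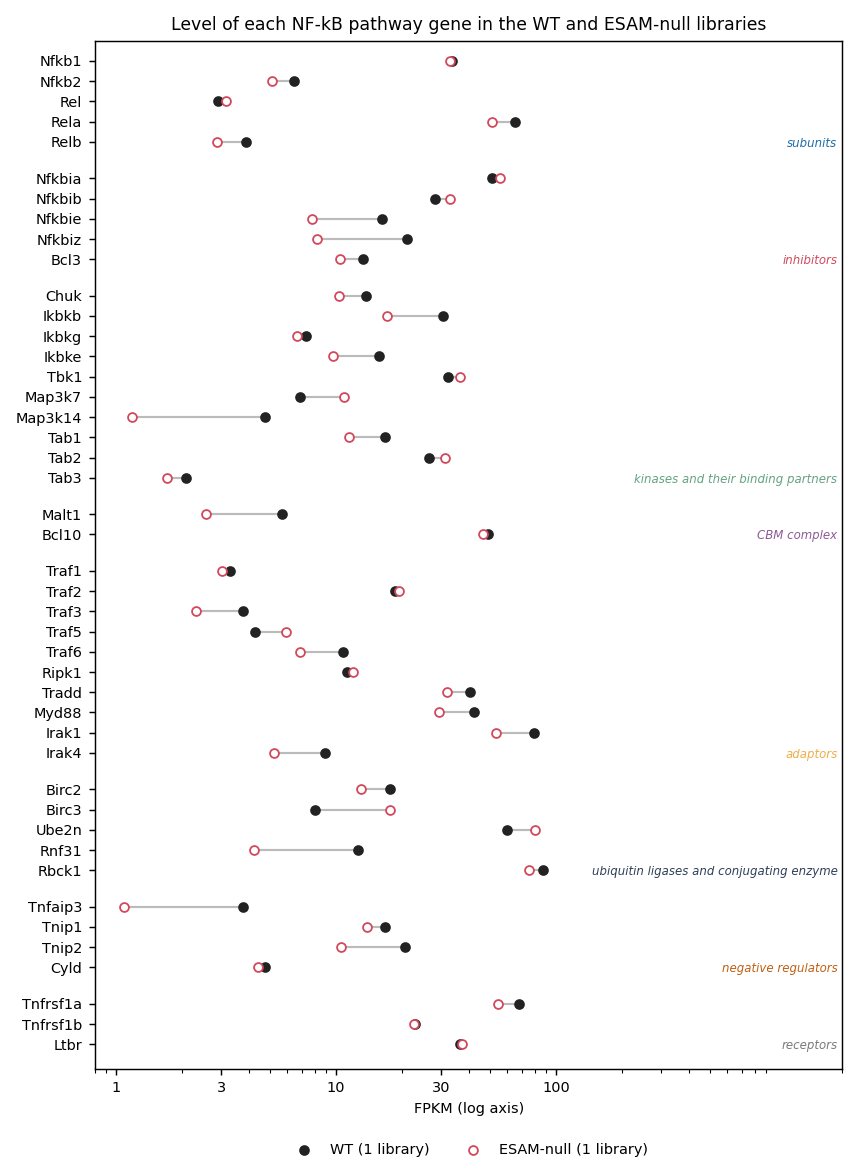
Level of each of the 44 NF-κB pathway genes in FPKM on a log axis, grouped by role, with the WT library as filled circles and the ESAM-null library as open circles, 1 library each. Most pairs lie close together. The longest lines are those of Map3k14 (4.76 FPKM in WT against 1.18 FPKM in ESAM-null) and Tnfaip3 (3.77 and 1.09 FPKM).

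Counted by sign alone, the members leaned to lower values in ESAM-null. The ratio of ESAM-null to WT was below 1 for 32 of the 44 members, or 72.7%, against 50.0% of all genes. With equal totals it was 40 members, or 90.9%, against 67.6% of genes. Map3k7, Traf5, Birc3 and Ube2n stayed above 1, whereas Rel, Nfkbia, Nfkbib, Tbk1, Tab2, Traf2, Ripk1 and Ltbr turned below it. The median log2 ratio of all members was -0.33, against 0.01 over the 11663 genes that were also above 0 in both libraries. The whole counting interval lay below 1 for 24 members (54.5%, against 36.6% of genes) and above 1 for 6 members (13.6%, against 36.7%). It lay past 2-fold lower for 4 members, Tnfaip3, Map3k14, Rnf31 and Nfkbiz (9.09%, against 7.68% of genes), and past 2-fold higher for no member (against 3.48%). The interval held 1 for the other 14 members.

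The share of genes past 2-fold differed with level, and so did the middle of the ratios. Among genes with a mean of 1 to under 3 FPKM, 30.0% were at least 2-fold lower and 19.7% higher, and of the 3 members in that range 2 were lower, Tnfaip3 and Map3k14. From 3 to under 10 FPKM the shares were 16.5% lower and 7.66% higher, and 2 of 13 members were lower, Malt1 and Rnf31. From 10 to under 30 FPKM they were 5.3% and 2.84%, and of 15 members 2 were lower, Nfkbie and Nfkbiz, and 1 was higher, Birc3. From 30 to under 100 FPKM they were 0.723% and 1.45%, and none of the 13 members was past 2-fold in either direction. The median log2 ratio of all genes went over these ranges from -0.27 and -0.20 to -0.07 and 0.10. The median of the members was lower in each range, at -1.80, -0.34, -0.39 and -0.08. In the lowest range it rested on 3 members and was the value of Tnfaip3, which the study had named on these libraries. Members below the median of all genes in their range were 3 of 3, 7 of 13, 10 of 15 and 9 of 13.

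**Figure D2:**
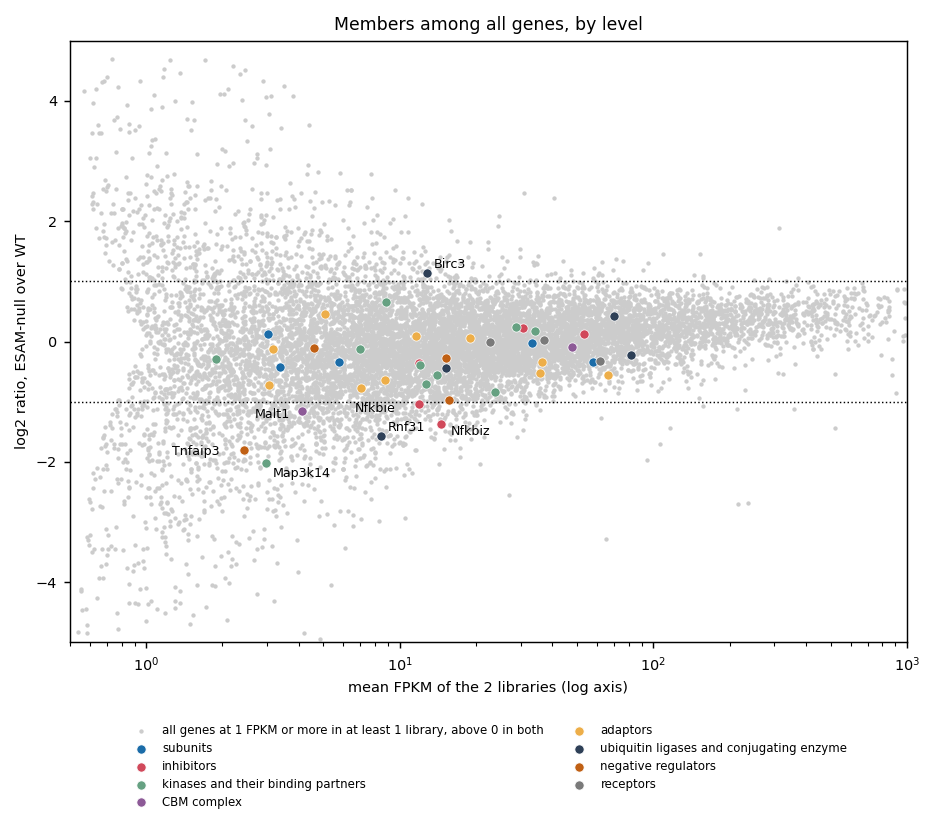
Log2 of the FPKM ratio, ESAM-null over WT, plotted against the mean FPKM of the libraries on a log axis, for all genes (gray) and for the members, colored by role. Dotted lines mark 2-fold. The gray cloud narrows from left to right, and the 13 members between 30 and 100 FPKM lie between the dotted lines. Of the 11663 genes drawn, 205 fall outside the axes.

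Several of these genes are themselves targets of NF-κB, and the bases before their start sites are shown for 4 inhibitors that close the feedback loop, because they lie on different sides of the 2-fold line. The sequences are from RefSeq on GRCm38.p6, each covers the 130 bases before the start site on the strand of the gene, and capitals mark matches of the 10-base κB consensus on either strand, overlapping matches run together.
Tnfaip3 (chr10:19015411-19015540, minus strand): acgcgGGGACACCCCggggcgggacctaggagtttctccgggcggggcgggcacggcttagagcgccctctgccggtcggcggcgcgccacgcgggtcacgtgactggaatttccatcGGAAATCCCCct
Nfkbie (chr17:45555570-45555699, plus strand): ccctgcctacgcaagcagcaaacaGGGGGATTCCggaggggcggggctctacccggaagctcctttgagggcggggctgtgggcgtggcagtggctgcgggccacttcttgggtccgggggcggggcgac
Nfkbia (chr12:55492648-55492777, minus strand): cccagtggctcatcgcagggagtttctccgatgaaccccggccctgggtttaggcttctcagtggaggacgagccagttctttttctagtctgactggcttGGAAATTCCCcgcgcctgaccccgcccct
Tnip1 (chr11:54962941-54963070, minus strand): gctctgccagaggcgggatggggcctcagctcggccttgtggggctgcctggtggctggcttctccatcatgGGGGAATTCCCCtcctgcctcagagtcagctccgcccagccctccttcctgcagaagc

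The first capital of the block nearest to the start lies 12 bases before it in Tnfaip3, 29 in Nfkbia, 58 in Tnip1 and 106 in Nfkbie. Another RefSeq start of Tnfaip3, preceded by chr10:19011964-19012213, had no match there. In the 250 bases before the start, a match was found for 11 of the 37 members with a promoter in the RefSeq table (29.7%), against 8.23% of 27025 genes. Besides the 4 genes above these were Nfkb2, Rel, Traf3, Map3k7, Irak1, Bcl10 and Cyld. Members with and without a match had nearly equal medians. Of the 11 members with a match 2 were lower, Tnfaip3 and Nfkbie, and none was higher, and their median log2 ratio was -0.27. Of the 26 without a match 2 were lower and 1 was higher, with a median of -0.26. A match of letters is a description and does not show that a factor binds there. The other 7 members, Nfkb1, Relb, Nfkbiz, Ikbkb, Tab1, Malt1 and Tradd, had no promoter in the table. The lower members Nfkbiz and Malt1 are therefore missing from the comparison of members with and without a match.

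The subunit genes kept their order of level in both libraries except for the 2 lowest, Rel and Relb, and none was past 2-fold. Rela, which encodes the main activating subunit, was 64.9 FPKM in WT and 51.1 in ESAM-null cells, with a log2 ratio of -0.34 whose interval as a fold lower was 1.18 to 1.37. Nfkb1, the precursor of p50, was 33.6 and 32.9 FPKM. Nfkb2, the precursor of p52, was 6.45 and 5.10 FPKM. Relb, the partner of p52, was 3.88 and 2.89 FPKM on about 73 and 59 reads, and its interval held 1. Rel, the c-Rel subunit of lymphoid cells, was 2.90 and 3.16 FPKM. Transcript levels for the subunits of the canonical dimer were thus well above those for the noncanonical dimer in both genotypes.

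The inhibitors divided. Nfkbia, which encodes IκBα and is the classical early feedback inhibitor, was 51.0 FPKM in WT against 55.8 FPKM in ESAM-null, and Nfkbib, which encodes IκBβ, was 28.1 and 32.9 FPKM. These were the most abundant of the 5 members in this group, and both had ratios just above 1, which turned below 1 with equal totals. Nfkbie, which encodes IκBε (chromosome 17, 45555703 to 45563169), was 16.1 FPKM in WT and 7.79 in ESAM-null cells, 2.06-fold lower with an interval of 1.72 to 2.50. Nfkbiz, which encodes the nuclear IκBζ (chromosome 16, 55811375 to 55838899), was 21.03 and 8.15 FPKM. It was 2.58-fold lower with an interval of 2.25 to 2.96. Bcl3, a nuclear IκB that works with p50 and p52, was 13.3 and 10.4 FPKM.

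Among the kinases, Map3k14 stood apart. It encodes NIK, the kinase that starts the noncanonical branch (chromosome 11, 103219762 to 103267472), and was 4.76 FPKM in WT against 1.18 FPKM in ESAM-null. The difference was 4.03-fold, with an interval of 2.92 to 5.63 from about 181 and 49 reads, and was the largest of the 44 members. Traf3, Traf2, Birc2 and Birc3 encode the complex that has NIK degraded. Traf3, which binds NIK, was 3.79 and 2.30 FPKM, Traf2 was 18.5 and 19.2 FPKM, and Birc2, a ubiquitin ligase, was 17.6 and 12.96 FPKM, all within 2-fold. Birc3, the other ligase, was 7.98 and 17.5 FPKM and past 2-fold higher.

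The kinases of the IKK complex were all within 2-fold. Ikbkb, the catalytic subunit of the canonical branch, was 30.6 FPKM in WT and 17.0 in ESAM-null cells, 1.79-fold lower with an interval of 1.62 to 1.98. Chuk, the catalytic subunit of the noncanonical branch, was 13.6 and 10.3 FPKM. Ikbkg, the regulatory subunit NEMO that binds ubiquitin chains, was 7.30 and 6.67 FPKM, and its interval held 1. Of the IKK-related kinases, Ikbke was 15.7 and 9.63 FPKM and Tbk1 was 32.1 and 36.4 FPKM. With equal totals Ikbkb passed 2-fold and Tbk1 turned below 1.

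The kinase TAK1, encoded by Map3k7, activates IKK with its binding partners. Map3k7 was 6.88 FPKM in WT against 10.8 FPKM in ESAM-null, 1.58-fold higher with an interval of 1.38 to 1.80. Tab1, an activating partner, was 16.7 and 11.4 FPKM. Tab2 and Tab3 bind ubiquitin chains. Tab2 was 26.5 and 31.2 FPKM, and Tab3 was 2.08 and 1.69 FPKM with an interval that held 1. The kinase was thus higher in ESAM-null while Tab1 was lower, and Tab2 was higher as deposited but lower with equal totals.

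**Figure D3:**
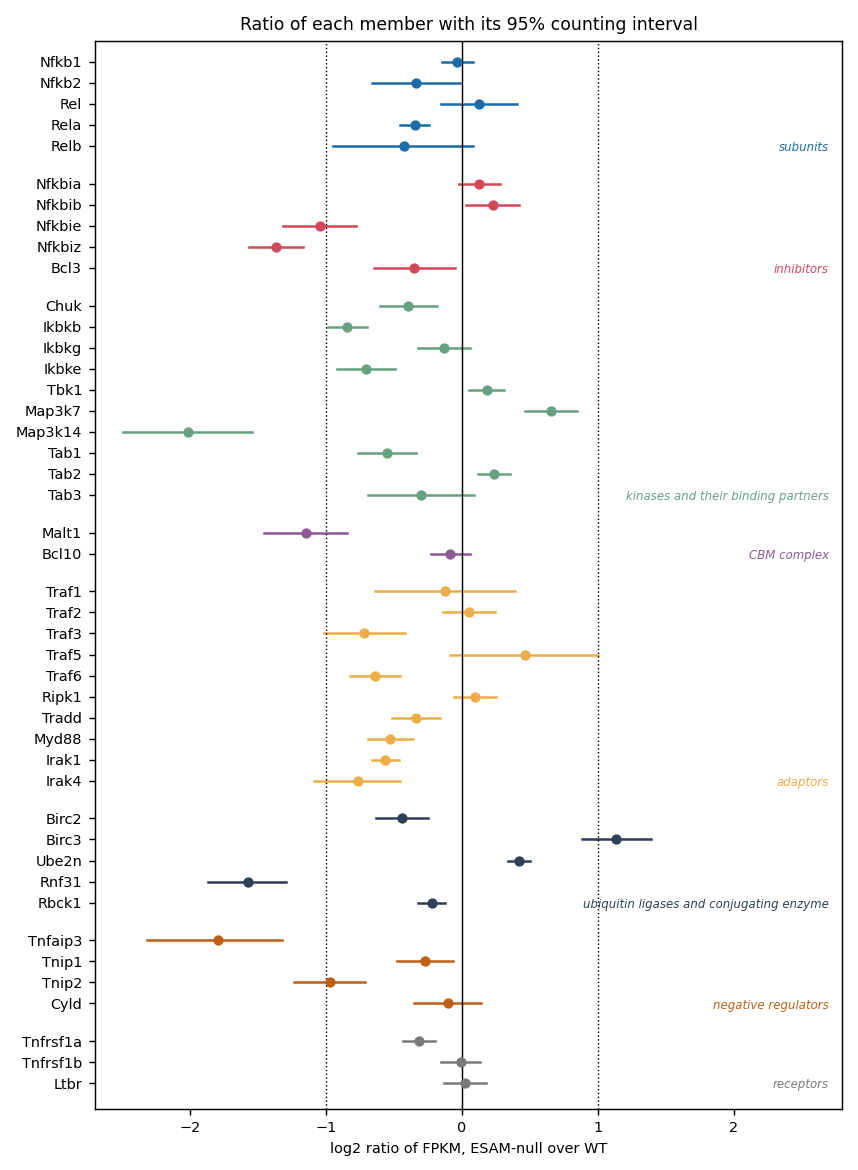
Log2 of the FPKM ratio, ESAM-null over WT, for each member, grouped by role, 1 library per genotype. Bars are 95% counting intervals, the solid line marks a ratio of 1 and dotted lines mark 2-fold. The bars of Map3k14, Nfkbiz, Rnf31 and Tnfaip3 lie wholly beyond the dotted line on the left, and the point of Birc3 lies beyond the one on the right.

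Malt1 and Bcl10 join CARD proteins in a complex that activates NF-κB downstream of antigen receptors. Malt1, a scaffold and protease (chromosome 18, 65430938 to 65479067), was 5.67 FPKM in WT and 2.56 in ESAM-null cells, 2.22-fold lower with an interval of 1.80 to 2.75. Bcl10, the part that forms filaments, was 49.2 and 46.5 FPKM. The partners thus differed in level as well as in ratio. Of the CARD genes among the other pathway genes, Card9, the partner in myeloid cells, was 1.44 FPKM (about 24 reads) for WT cells, and Card10 was 2.37 FPKM (about 101 reads). Both were listed at 0 in ESAM-null.

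None of the 10 adaptor genes was past 2-fold. Ratios were below 1 for 7 of them, as for 32 of all 44 members and 50.0% of all genes. Myd88 links interleukin-1 and Toll-like receptors to the IRAK kinases. Myd88 was 42.3 FPKM in WT against 29.4 FPKM in ESAM-null, Irak1 was 79.1 and 53.5 FPKM, and Irak4 was 8.87 and 5.21 FPKM. Traf6, the ubiquitin ligase that follows them, was 10.7 and 6.86 FPKM. These 4 members were lower by 1.44 to 1.70-fold with intervals below 1, as were those of 36.6% of all genes. Other genes of the same arm, from the lists of other pathway genes, went both ways. Irak2 was 5.78 and 2.71 FPKM, 2.14-fold lower, whereas Tirap was 1.80-fold higher with an interval of 1.22 to 2.72 and Irak3 was 1.59-fold higher with an interval of 1.39 to 1.83. Irak2 was named outside the rule for these lists. In the TNF receptor arm, Tradd was 40.4 and 32.0 FPKM and Ripk1, a kinase and scaffold, was 11.2 and 12.0 FPKM. Traf1, itself a target of the pathway, was 3.30 and 3.04 FPKM on about 66 reads in each library. Traf5 was 4.28 and 5.91 FPKM on about 49 and 73 reads, and both intervals held 1.

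The ubiquitin enzymes held the higher member and 1 of the lower ones. Birc3, which encodes the ubiquitin ligase cIAP2 and is a target of NF-κB (chromosome 9, 7848699 to 7873186), was 7.98 FPKM in WT and 17.5 in ESAM-null cells, 2.195-fold higher with an interval of 1.84 to 2.62. Birc2, its close relative next to it on the chromosome (7818227 to 7837064), went the other way, at 17.6 and 12.96 FPKM. The sources used here do not state how reads shared by such relatives were treated, so both values are uncertain to that extent. In WT Birc2 was the higher of the pair, and in ESAM-null Birc3 was.

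LUBAC, the complex that makes linear ubiquitin chains, consists of the ligase HOIP, encoded by Rnf31, and the partners encoded by Rbck1 and Sharpin. Rnf31 (chromosome 14, 55591708 to 55603693) was 12.6 FPKM in WT against 4.24 FPKM in ESAM-null, 2.97-fold lower with an interval of 2.46 to 3.64. Rbck1 was 87.5 and 75.1 FPKM, the highest level among the members in WT. Sharpin, from the other pathway genes, was 47.6 and 47.5 FPKM. Neither partner of Rnf31 was past 2-fold. Ube2n, the conjugating enzyme of other ubiquitin chains, was 60.0 and 80.3 FPKM, 1.34-fold higher with an interval of 1.26 to 1.42. It was the highest member in ESAM-null.

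The 4 members listed as negative regulators outside the IκB family had ratios below 1, from -1.80 to -0.10 on the log2 scale. So had 50.0% of all genes and 72.7% of the members. Of the 12 further inhibitors and cofactors given below, 5 had ratios below 1 and 7 above. Tnfaip3, which encodes the ubiquitin editing enzyme A20 (chromosome 10, 19000910 to 19015657), was 3.77 FPKM in WT and 1.09 in ESAM-null cells, 3.47-fold lower with an interval of 2.50 to 4.99. It rested on about 148 and 46 reads. Tnip1 and Tnip2 encode partners of A20. Tnip2 was 20.6 and 10.53 FPKM, 1.96-fold lower, and was the member nearest to the 2-fold line from inside. Tnip1 was 16.6 and 13.8 FPKM. Cyld, a deubiquitinase, was 4.75 and 4.42 FPKM, and its interval held 1. The summed level of these 4 genes was 45.8 FPKM in WT against 29.8 FPKM in ESAM-null.

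Of the groups of members, the receptors had the median log2 ratio nearest to 0, at -0.01. Tnfrsf1a, the TNF receptor with a death domain, was 68.0 FPKM in WT and 54.6 in ESAM-null cells. Tnfrsf1b, the other TNF receptor, was 22.8 and 22.7 FPKM, and Ltbr, the lymphotoxin receptor that feeds the noncanonical branch, was 36.7 and 37.3 FPKM. The intervals of Tnfrsf1b and Ltbr held 1, with bounds of 0.901 to 1.10 and 0.912 to 1.13 for the ratio of ESAM-null to WT.

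Other genes of the pathway were taken from 6 lists with 135 genes in the files, of which 99 reached 1 FPKM in at least 1 library. At least 2-fold lower were 22 (22.2%, against 12.8% of all genes) and higher were 7 (7.07%, against 7.42%), with a median log2 ratio of 0.01 when the 6 genes listed at 0 in ESAM-null are ranked lowest. Among 24 further adaptors and kinases 9 were lower (37.5%) and none was higher, with a median of -0.35. Besides Card9 and Card10, these included Nod1, a sensor of bacterial peptides, at 3.48 FPKM in WT against 0.580 FPKM in ESAM-null, and Tifa, an adaptor of Traf6, at 13.2 and 2.73 FPKM. Map3k3, a kinase upstream of IKK, was 26.7 and 9.97 FPKM. These 3 genes lie outside the naming rule and were chosen once their values had been seen. The largest ratios of the list were those of Tirap (1.997 and 3.60 FPKM), Irak3 (12.4 and 19.8 FPKM) and Azi2 (17.6 and 26.2 FPKM), all within 2-fold. The most abundant were Ripk3, at 77.7 and 76.0 FPKM, and Casp8, at 66.1 and 83.5 FPKM.

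Of 11 further receptors 1 was lower and 1 was higher, 9.09% each, against 12.8% and 7.42% of all genes. Tlr2, a sensor of bacterial lipoproteins, was 7.13 FPKM in WT and 2.21 in ESAM-null cells, and Tnfrsf11a, which encodes RANK, was 0.528 and 2.23 FPKM on about 24 and 110 reads. Cd27 was 94.3 and 124.8 FPKM and Tnfrsf25 was 23.4 and 22.1 FPKM. Of 9 ligands 4 were lower (44.4%, against 12.8% of all genes) and 1 was higher (11.1%, against 7.42%). Of the lower ones, Lta, Tnfsf13b and Tnfsf14 had low means of 0.722, 0.533 and 1.69 FPKM. Among all genes from 1 to under 3 FPKM, 30.0% were lower. Ltb, a subunit of the ligand of Ltbr, was the most abundant at 371.9 and 412 FPKM, and Il18 was 8.54 and 8.59 FPKM. Lta, another ligand of the TNF receptors, was 1.44 FPKM in WT, and Tnfsf13b, a survival factor of B cells, was 1.07 FPKM. Both were listed at 0 in ESAM-null. Tnfsf14, a second ligand of Ltbr, was 2.96 and 0.414 FPKM, and Tnfsf9 was 5.19 and 2.19 FPKM. Tnfsf12, a ligand that activates the noncanonical branch, was 1.49 and 5.00 FPKM.

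Of 19 further ubiquitin enzymes 2 were lower and none was higher. Itch, a ligase that works with A20, was 9.68 FPKM in WT against 2.23 FPKM in ESAM-null, 4.34-fold lower with an interval of 3.53 to 5.37. Peli2 was 2.22 and 0.725 FPKM. The parts of the ligase that removes IκB, Skp1a and Rbx1, were among the most abundant. Skp1a was 440.6 and 602.7 FPKM, and Rbx1 was 209.5 and 284.5 FPKM. Of 12 further inhibitors and cofactors 2 were lower (16.7%, against 12.8% of all genes) and 1 was higher (8.33%, against 7.42%). Nfkbid, which encodes another nuclear IκB, was 46.5 and 22.4 FPKM, 2.08-fold lower with an interval of 1.85 to 2.35. Nkiras2, an inhibitor that binds IκB, was 6.34 and 3.08 FPKM, and Nkrf, a repressor, was 1.52 and 3.19 FPKM. Commd1 was the most abundant, at 205.2 and 291.1 FPKM.

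Among 24 known target genes outside the pathway 4 were lower and 4 were higher, 16.7% each against 12.8% and 7.42% of all genes, and the median log2 ratio was 0.02. Cxcl10, a chemokine that interferon also induces, was 6.54 FPKM (about 55 reads) for WT cells and was listed at 0 in ESAM-null. Ptgs2, the inducible cyclooxygenase, was 1.48 and 0.0247 FPKM on about 59 reads and 1 read. Ccl5 was 2.30 and 0.302 FPKM on about 7 reads and 1 read, and its interval held 1. So did that of the other lower gene, Ccl2, at 1.06 and 0.326 FPKM on about 6 and 2 reads. In the opposite direction, Cxcl2 was 0.606 and 5.57 FPKM, Mmp9 was 0.253 and 1.23 FPKM, and Ccr7 was 1.62 and 7.55 FPKM. The most abundant targets were close to equal, with Ccl4 at 195.1 and 207 FPKM and Myc at 85.2 and 92.7 FPKM. The other higher target, Tnfaip2, was 2.05 and 6.55 FPKM, and the intervals of all 4 higher targets left out 1. Ccl2 and Tnfaip2 were named outside the rule, with their values known.

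**Figure D4:**
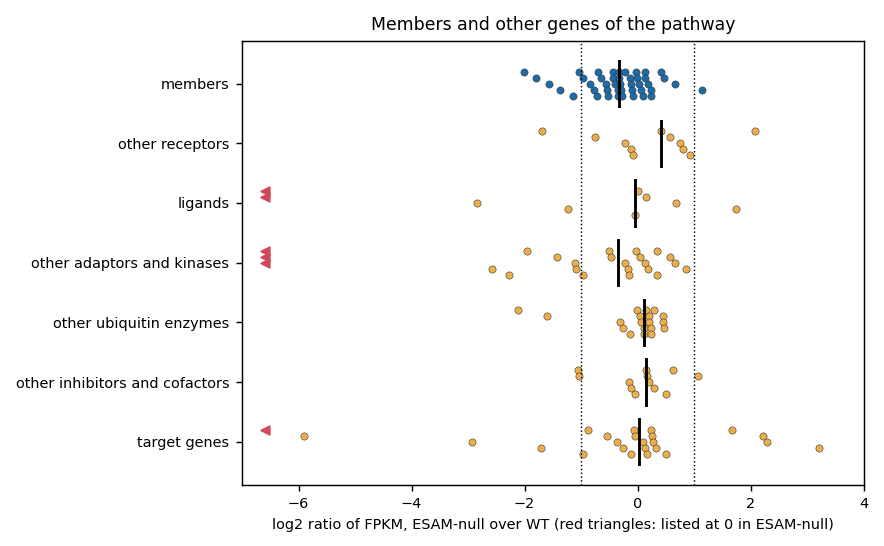
Log2 of the FPKM ratio, ESAM-null over WT, for the 44 members (blue) and the 99 other pathway genes (yellow) in 6 lists, with the median of each as a black bar and dotted lines at 2-fold. Red triangles at the left edge are genes listed at 0 in ESAM-null, which have no finite ratio. Members span -2.01 to 1.13, and the widest spread is that of the target genes.

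Many NF-κB genes are also active in mature cells that could reach the gate, so markers of these cells were measured. All 8 markers of stem and progenitor cells were present, with a summed level of 806.8 FPKM in WT and 771.1 in ESAM-null cells and none past 2-fold. Macrophage markers summed to 28.3 and 30.6 FPKM over 10 genes, and of the 6 that reached 1 FPKM 2 were lower. Mertk, Vsig4 and Timd4 were at 0 in both libraries. Emr1, C1qa and Marco were at 0 in ESAM-null, on about 20, 23 and 17 reads in WT. The other macrophage markers went both ways, all within 2-fold. Csf1r (2.17 and 3.59 FPKM), C1qc (3.38 and 5.07 FPKM) and Cd68 (14.2 and 20.0 FPKM) were higher in ESAM-null, and C1qb (3.85 and 1.94 FPKM) was lower. Granulocyte and monocyte markers summed to 258.2 and 263.8 FPKM over 9 genes, with Elane and Ctsg at 0 in both libraries. B cell markers summed to 86.4 and 103.6 FPKM over 8 genes, with Ms4a1 and Pax5 at 0 in both libraries and Ebf1 at 0 in ESAM-null. Erythroid markers summed to 1349 and 955 FPKM over 10 genes, of which 3 were at least 2-fold lower and 1 higher. No granulocyte, monocyte or B cell marker that reached 1 FPKM was past 2-fold. Endothelial markers summed to 80.2 and 94.7 FPKM with 1 of 6 higher, and megakaryocyte markers to 85.4 and 96.7 FPKM with 1 lower and 1 higher of 5. Hepatocyte markers summed to 42.0 and 37.1 FPKM with 2 lower and 1 higher of 5, and Fgb was at 0 in both libraries. Over all genes 12.8% were lower and 7.42% higher, beside which these counts of few markers stand. The part of such cells in the differences above was not tested.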

How the data were processed

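RNA-seq had been done by the authors on E14.5 FL LSK CD48- cells, 1 library per genotype, with single-end reads of cDNA amplified with a SMART-Seq kit. The files hold the FPKM of each gene symbol as the authors deposited them. Cuffnorm 2.2.1, TopHat2 2.0.13, SAMtools 0.1.19, Bowtie2 2.2.3 and the build mm10 come from the submitters' processing notes. The sources used here do not state the gene annotation, the scaling between libraries or how reads with several matches were handled.

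FPKM in ESAM-null was divided by FPKM in WT for genes at 1 FPKM or more in at least 1 library, and past 2-fold was counted. Reads per gene were approximated from FPKM, RefSeq transcript lengths (through GENCODE M21 on GRCm38, the same build as mm10, for 98.4% of genes) and the value of 1 read. This value was found from low values of single-transcript genes, with an assumed fragment length of 200 bp and SD of 80 bp. The share of such genes under about 10 reads that lay within 0.05 of a whole read was 57.0% in WT and 62.7% in ESAM-null, so the reads are approximate. PCR copies are not separate molecules, so the intervals cover counting error only. One read was worth 0.92 times as much FPKM in ESAM-null as in WT, the commonest ratio (94 of 978) among genes under 1 FPKM. The steps were also run on simulated reads with counting error alone and the same lengths and scales. That run checks the code and cannot show how well the reads or intervals hold for the real libraries. Gene coordinates are those of GENCODE M21.

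The members, gene lists and markers were chosen with earlier results of these data known. All members are named. Of the other pathway lists, all genes past 2-fold are named where there were 6 or fewer, otherwise the 3 largest and 3 smallest ratios, plus the 2 most abundant. Some genes that this rule names are not reported here. Marker lists are given as sums. Of listed genes absent under their symbol, Ube2d2a and Adgre1 were found as Ube2d2 and Emr1. Alternatives were other filters, pseudocounts, scalings and thresholds. Calculations used scipy 1.17.1, pandas 2.3.3 and numpy 2.4.6 under Python 3.11.15, and plots matplotlib 3.10.9.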

Additional observations from a re-analysis of the deposited data

How the results depend on the processing

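The 6 lower members and the 1 higher member of the 44 were the same genes with no filter, with filters of 0.1 FPKM in 1 library or 1 FPKM in both, with 0.1 FPKM added, and with the median ratio set to 1. A filter of 5 FPKM kept 36 members and 4 lower calls, against 639 of 9140 genes (6.99%). With 1 FPKM added to both values 4 of the 44 were left, without Nfkbie and Malt1, against 8.8% of genes. Upper quartile scaling gave 7 of the 44, with Tnip2, against 1637 of 12066 genes (13.6%). Rescaling each library to a total of 1000000 gave 9 lower, with Tnip2, Ikbkb and Irak4 added, and 0 higher, against 18.3% and 5.445% of genes. The median log2 ratio of the members was then -0.60 against -0.33, and that of all genes -0.27 against 0.01. At 1.5-fold 12 members were lower and 2 higher, against 2632 and 2095 genes (21.8% and 17.4%). At 3-fold 2 were lower and 0 higher, against 877 and 490 genes (7.27% and 4.06%). Without Tnfaip3 and Malt1, an alternative added after the data were seen, the median of the members was -0.31. Over the other alternatives the median of the members ran from -0.37 to -0.30. No member that was past 2-fold changed direction under any pseudocount or scaling tried, and the cause of the other changes was not tested. Over all genes, lower and higher calls went from 1540 and 895 to 3264 and 1343 with no filter, 2868 and 1214 at 0.1 FPKM, 639 and 343 at 5 FPKM, 761 and 437 of 10674 at 1 FPKM in both libraries, and 1066 and 568 with 1 FPKM added. No paired analysis was possible because there is 1 library per genotype, which also leaves nothing to leave out. Depth limits most the members with few reads. Traf5, Traf1 and Relb had the fewest in WT, and their intervals reach from below to above a ratio of 1. Map3k14 and Tnfaip3 had the fewest in ESAM-null, about 49 and 46. With 1 FPKM added their log2 ratios went from -2.01 and -1.80 to -1.40 and -1.19. These values lay outside their counting intervals but still past 2-fold lower. The zero of every ratio is known only to within the scalings above, since the sources used here do not state how Cuffnorm scaled the libraries.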
